A study of Arabidopsis thaliana with 24 samples.

Results

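In roots of Arabidopsis thaliana, 154 genes met a rule for opposite mean differences from mock with brassinolide (BL) and L-kynurenine (Kyn). The genes were chosen from normalized read counts on the log2(value + 1) scale, as the difference of each treatment from mock within 24 h and within 48 h, averaged over both times. A gene entered with a mean normalized count of at least 20 over all libraries and differences of at least 0.4 in size and of opposite sign. Of 16095 features with that mean, 108 were higher with BL and lower with Kyn, and 46 were lower with BL and higher with Kyn. These 154 are called opposed genes here. For scale, 364 features were at or above 0.4 with both treatments and 206 were at or below -0.4 with both. Counting each treatment by itself, 1082 features were at or above 0.4 with BL and 857 at or below -0.4. With Kyn these counts were 973 and 1051. Whether the numbers of opposed genes exceed what these counts alone would give was not tested.

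BL is a brassinosteroid hormone, perceived by the receptor kinase BRI1, whose signal reaches transcription factors of the BES1 and BZR1 family. Kyn inhibits TAA1 and its relatives, the aminotransferases that make auxin from tryptophan by way of indole-3-pyruvate. Auxin promotes the outgrowth of root hairs, tubes formed by single epidermal cells, and auxin and brassinosteroids act together in setting cell elongation and meristem size in roots.

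Seedlings of the wild-type accession Col-0 were germinated for 3 days and moved to mock medium, to 0.8 nM BL, to 4 µM Kyn, or to both agents at those doses (BL+Kyn). All groups shared the genotype and medium, and none carried a transgene according to the labels. Roots were harvested after 12, 24 or 48 h, cut near the tip, and their RNA was read from the 3' end with CEL-Seq2. Each of the 12 groups had 2 libraries, called biological replicates in the series' design text with no word on how they were grown apart, so p-values measure the spread between these libraries, which may be partly technical.

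Libraries held 6322167 to 31365110 reads as recovered from the deposited values. The root label was checked on root hair genes, and EXPA7 lay between 218 and 3859 normalized counts across the 24 libraries. Replicate 2 of BL at 12 h and replicate 2 of Kyn at 12 h stood apart in transcripts of green tissue. The summed count of 12 photosynthesis genes was 91695 and 100520 there, against 1730.5 to 7591 in the other libraries, and each was the shallower library of its pair. Counts of opposed genes at 12 h that moved by over 1.5 times without both libraries are therefore also given without them, and a named call lost that way is marked. The part of green tissue or depth in the 12 h results was not tested beyond that. The libraries of BL+Kyn at 48 h also stood apart, from each other. Over the 16095 features with a mean of at least 20, their median absolute log2 difference was 0.36, against 0.17 to 0.24 within the other groups, and a chi-square of their reads was 46.3 per gene, against 6.19 to 32.1.

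The promoters shown belong to some opposed genes of the groups described below, root hair genes and genes of aliphatic glucosinolate synthesis. They do not stand for all opposed genes of either group. Sequences are the 250 bases before the gene start annotated by RefSeq on build TAIR10.1, read 5' to 3' on the strand of the gene. Capitals mark matches to 3 motifs. The first is the brassinosteroid response element, searched as CGTGTG or CGTGCG. The second is the auxin response element, searched as TGTCTC or TGTCGG. The third is the root hair element, a longer degenerate motif whose core can hold CGCACG, so that it can overlap the first. Both strands were searched.
EXPA7: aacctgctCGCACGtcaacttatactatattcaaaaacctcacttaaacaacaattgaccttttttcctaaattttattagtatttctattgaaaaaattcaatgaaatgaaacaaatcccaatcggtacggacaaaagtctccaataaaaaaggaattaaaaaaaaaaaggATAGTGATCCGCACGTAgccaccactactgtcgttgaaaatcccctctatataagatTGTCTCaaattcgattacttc
EXPA18: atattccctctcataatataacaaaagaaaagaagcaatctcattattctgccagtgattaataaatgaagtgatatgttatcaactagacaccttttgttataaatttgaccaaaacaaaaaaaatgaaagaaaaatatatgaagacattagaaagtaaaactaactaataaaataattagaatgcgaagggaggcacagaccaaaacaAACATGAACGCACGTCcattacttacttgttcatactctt
RHS13: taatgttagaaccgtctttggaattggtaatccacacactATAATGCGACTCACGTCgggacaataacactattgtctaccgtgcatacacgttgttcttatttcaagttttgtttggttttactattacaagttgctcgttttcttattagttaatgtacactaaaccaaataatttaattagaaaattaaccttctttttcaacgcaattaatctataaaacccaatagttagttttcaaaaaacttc
RHS19: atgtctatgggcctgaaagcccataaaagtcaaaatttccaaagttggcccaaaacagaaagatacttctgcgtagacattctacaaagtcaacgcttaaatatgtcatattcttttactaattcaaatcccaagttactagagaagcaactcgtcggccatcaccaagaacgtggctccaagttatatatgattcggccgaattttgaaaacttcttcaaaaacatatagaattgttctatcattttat
IPMI1: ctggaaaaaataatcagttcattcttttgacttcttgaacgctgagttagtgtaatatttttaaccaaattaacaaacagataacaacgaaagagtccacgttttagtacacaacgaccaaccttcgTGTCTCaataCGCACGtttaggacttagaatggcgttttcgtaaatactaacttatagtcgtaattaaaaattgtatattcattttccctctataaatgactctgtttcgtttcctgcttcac
IPMI2: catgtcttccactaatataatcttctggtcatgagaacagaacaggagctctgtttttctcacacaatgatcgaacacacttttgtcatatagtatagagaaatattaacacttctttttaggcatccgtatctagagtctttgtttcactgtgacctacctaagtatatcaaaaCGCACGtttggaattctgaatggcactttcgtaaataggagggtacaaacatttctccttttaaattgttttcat
They lie at chr1:4276255-4276504 on the plus strand (EXPA7), chr1:23331313-23331562 on the plus strand (EXPA18), chr4:993040-993289 on the minus strand (RHS13), chr5:26894528-26894777 on the plus strand (RHS19), chr3:21798304-21798553 on the minus strand (IPMI1) and chr2:17920397-17920646 on the plus strand (IPMI2). The root hair element was present in 4 of 6 promoters of opposed genes on the root hair lists (EXPA7, EXPA18, RHS13 and RSH4). In EXPA7 and EXPA18 it began 78 and 40 bases before the gene start and contained a reverse match to CGTGCG, which begins at base 69 and base 32 before the start. The element was in 0.684% of all 37879 promoters of that length and in 0.789% of the 18629 promoters of tested genes. It was defined in earlier work on promoters of root hair genes, EXPA7 and EXPA18 among them, so its presence there is background. RHS19 held no match in this window. No promoter of the 46 BL-down, Kyn-up genes held the root hair element, and the 4 root hair promoters were the 4 matches among 107 BL-up, Kyn-down promoters (3.74%).

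The brassinosteroid response element was present in 13.1% of the 107 BL-up, Kyn-down promoters and 8.70% of the 46 BL-down, Kyn-up promoters, against 6.26% of all promoters and 6.98% of those of tested genes. The auxin response element was present in 20.6% and 10.9%, against 14.6% and 14.8%. The G-box CACGTG was present in 8.41% and 13.0%, against 5.40% and 7.34%. Of the promoters of 9 opposed genes of aliphatic glucosinolate synthesis, 2 held the brassinosteroid response element and 2 the auxin response element. The first 2 were IPMI1 and IPMI2, which encode subunits of one isomerase family. Each held a reverse match to CGTGCG, beginning 113 and 75 bases before the start. Of the 40 bases from that match onward, 31 were identical in both promoters (77.5%), among them the bases of the match, by which the stretches were lined up. The whole windows were compared without that alignment and matched at 28.8% of positions, so these shares cannot be set against each other. These matches describe letters in a window and say nothing of binding.

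The values that chose the genes are description only. Over 24 and 48 h the median difference from mock was 0.56 with BL and -0.83 with Kyn for the 108 BL-up, Kyn-down genes. For the 46 BL-down, Kyn-up genes it was -0.58 with BL and 0.60 with Kyn, and for all 18948 features tested it was 0.00 with each agent. The opposed genes were lower in abundance than most. Their median mean count was 71.2 for the 108 and 55.9 for the 46, against 170.0 for all features with a mean of at least 20, and 61.1% and 67.4% of them lay under 100, against 35.5%.

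Replicates set how firmly a gene belongs. For 37 of the 108 genes the libraries of BL lay above, and those of Kyn below, both mock libraries at both times, and the reverse held for 14 of the 46. Over the 16095 features these shares were 0.491% and 0.249%, and nothing is read from them because these libraries chose the genes. EXPA7, RHS13, GH3.1, UMAMIT4 and AT3G63380 were among the 37, and IDL1, UGT73B4, AT2G43590 and AT1G73780 among the 14. When each of the 12 libraries behind the choice was left out in turn, 33 of the 108 genes and 11 of the 46 met the rule every time. EXPA7, EXPA18 and RHS19 were not among those 33, and RHS13 was. Just inside the limits lay PARP2, a poly(ADP-ribose) polymerase, at 0.68 with BL and -0.40 with Kyn, and AT4G24480, a protein kinase, at -0.40 and 0.45. Just outside lay AT5G41680 at 0.40 and -0.56, where the first value is 0.398 before rounding, and AT3G54910 at -0.43 and 0.39.

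**Figure D1:**
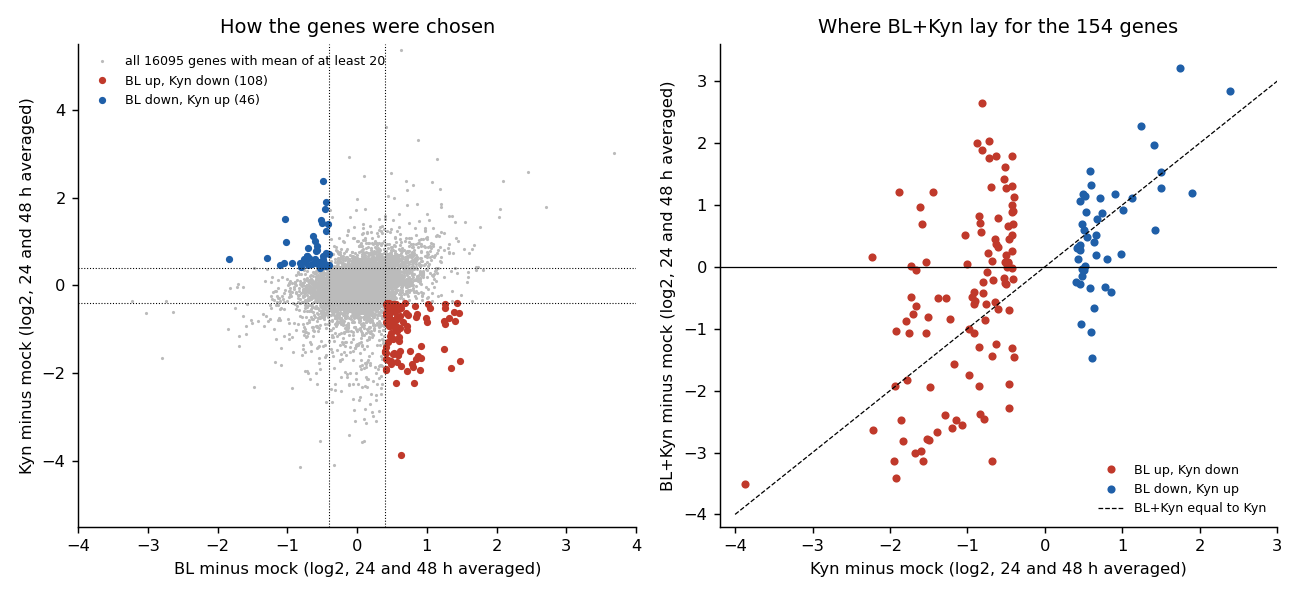
Left, the difference of BL from mock (x axis) against that of Kyn (y axis), in log2 units averaged over 24 and 48 h, for the 16095 genes with a mean count of at least 20, with dotted lines at 0.4 and -0.4 and the opposed genes in colour. Right, the difference of Kyn from mock (x axis) against that of BL+Kyn (y axis) for the 154 genes; both axes subtract the same mock libraries. Many red points lie below the dashed line of equal values and others lie above 0, so the BL-up, Kyn-down genes do not share a single place with BL+Kyn.

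The 12 h libraries did not enter the differences that chose the genes, only the mean count over all libraries. A gene high mainly at 12 h could pass that limit through them. BL and Kyn differed at 12 h in the direction of choice. Such a difference can come from either agent alone, so it does not show that both moved a gene. Each agent against mock is given below. BL was above Kyn at 12 h for 102 of the 108 BL-up, Kyn-down genes, with a median log2 difference of 1.13, and below Kyn for 42 of the 46 BL-down, Kyn-up genes, with a median of -0.91. The median over all features tested was -0.01. By limma with Benjamini-Hochberg adjustment over all features, 40 of the 108 were called higher in BL than in Kyn at 12 h and none lower, and 14 of the 46 were called lower and none higher. Over all features 1.91% were called, 1.41% higher and 0.491% lower. On the recovered reads edgeR called 43 of the 108 and 15 of the 46, DESeq2 called 48 and 17, and neither called any of the 154 against its direction. Over all 18948 features edgeR called 299 higher and 116 lower, and DESeq2 396 and 173. The libraries of BL lay above those of Kyn without overlap for 78 of the 108 (20.9% of all features) and below them for 37 of the 46 (20.9%).

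These counts depended on single libraries, as did the counts over all features, which are given further below. The 40 became 13 without replicate 1 of BL at 12 h, 22 without replicate 1 of Kyn and 18 without replicate 2 of Kyn, and 18 without both libraries rich in photosynthesis transcripts. The 14 became 8 without replicate 1 of BL, 6 without replicate 2 of BL and 6 without either library of Kyn, and 5 without both libraries rich in photosynthesis transcripts. Among the 33 genes that met the rule with every library left out in turn, 22 were called higher in BL than in Kyn at 12 h (1.41% of all features). Among the 11 such genes of the other direction 5 were called lower (0.491%). Without both libraries rich in photosynthesis transcripts these became 8 and 3.

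**Figure D2:**
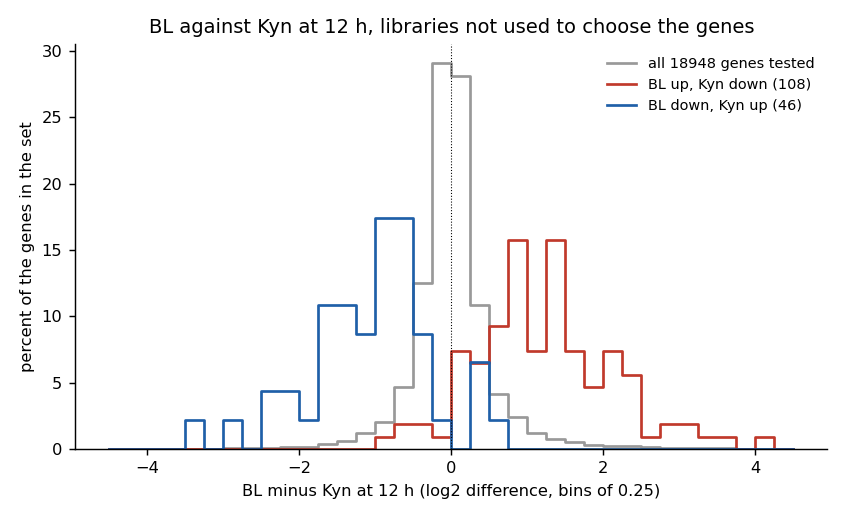
Percent of genes (y axis) by the log2 difference of BL minus Kyn at 12 h (x axis, bins of 0.25), for all 18948 genes tested and for both sets of opposed genes. The 108 BL-up, Kyn-down genes are centred at 1.13 and the 46 BL-down, Kyn-up genes at -0.91, with all genes at -0.01.

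At 12 h each agent was also compared with mock. By limma, 29 of the 108 BL-up, Kyn-down genes fell with Kyn at 12 h and none rose (1.03% of all features fell and 1.28% were called either way), with a median of -0.90. With BL no gene of the 108 was called at 12 h, where 0.0422% of all features rose and 0.095% were called either way. At an unadjusted p under 0.05, 7 of the 108 (6.48%) were higher, against 3.21% of all features, and none lower (3.02%). None of the 108 was called by edgeR or DESeq2. Their median was 0.19, with 77 of 108 above mock. Of the 46 BL-down, Kyn-up genes 5 rose with Kyn (0.253%), with a median of 0.50, and 2 fell with BL (0.0528%), with a median of -0.43. At an unadjusted p under 0.05, 14 of the 46 were higher with Kyn (4.43% of all features) and 13 lower with BL (3.02%). The 2 that fell with BL were UGT73B4 and AT2G43590. In the authors' deposited table, 35 of the 108 were lower (1.37% of all features with an adjusted p) and 3 higher (0.796%) with Kyn at 12 h at an adjusted p under 0.05, and 4 were higher with BL (0.391%). The 3 were HPR, AT3G16370 and FBA2, and the 4 were LHCB2.1, GASA6, AT3G16370 and FBA2, all named after their values were seen. Their values were high in the libraries that stood apart at 12 h. GASA6 held 12.6 and 336 normalized counts in BL, and FBA2 held 5.24 and 404 in Kyn. These comparisons with mock share the mock libraries.

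The counts with Kyn also rested on few libraries. The 29 became 8 and 11 without replicate 1 and replicate 2 of mock at 12 h, 18 and 11 without replicate 1 and replicate 2 of Kyn, and 12 without both libraries rich in photosynthesis transcripts. The 5 became 2 without either mock library or replicate 1 of Kyn at 12 h, and 3 without replicate 2 of Kyn. Libraries outside the comparison share the estimate of spread, and without either library of BL+Kyn at 12 or 24 h, of Kyn at 48 h or of mock at 24 or 48 h the 5 became 3, while without replicate 2 of BL+Kyn at 48 h they became 8. The 2 that fell with BL became 0 without replicate 2 of BL or without either mock library at 12 h, and 1 without either library of Kyn at 48 h. Without replicate 1 of Kyn, 3 of the 108 were called higher with Kyn.

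**Figure D3:**
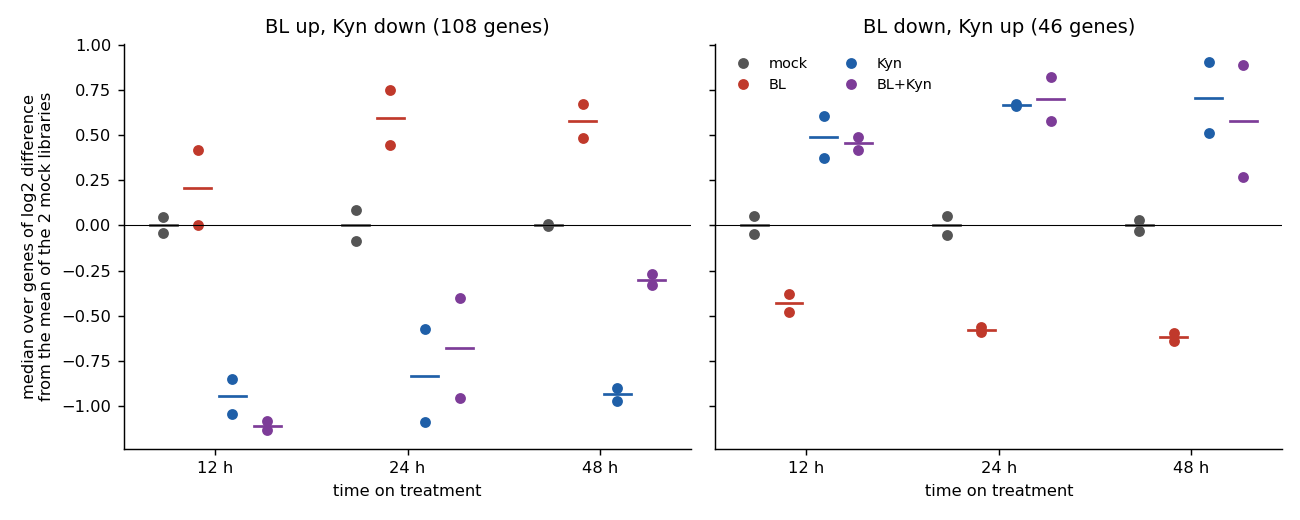
Each point is a library, placed at the median over the opposed genes of the log2 difference from the mean of the mock libraries of the same time (y axis), by time (x axis) and treatment (colour); short bars are means of both libraries. In the left panel BL+Kyn lies at -1.14 and -1.09 at 12 h and at -0.27 and -0.33 at 48 h, and in the right panel it stays on the side of Kyn.

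BL+Kyn lay mostly on the side of Kyn at 12 h, and for the BL-up, Kyn-down genes less so later. It was below mock for 90 of the 108 at 12 h, 74 at 24 h and 57 at 48 h, and the median difference from mock was -1.06, -0.72 and -0.26 at those times. The BL-down, Kyn-up genes were above mock with BL+Kyn for 27, 35 and 31 of 46, with medians of 0.43, 0.67 and 0.50. A change of the BL+Kyn difference from 12 to 48 h was tested gene by gene in the same limma fit, a contrast added after the data had been seen. It was positive for 4 of the 108 and negative for 3, and positive for 1 of the 46 and negative for 2, against 1.75% and 0.797% of all features, or 2.55% together. Without replicate 1 or replicate 2 of BL+Kyn at 48 h the 10 became 17 and 22, without either library of BL+Kyn at 12 h 6 and 1, and without either library of mock 2 and 1 at 12 h and 1 and 4 at 48 h. For the 46 genes the medians of the BL+Kyn libraries at 48 h were 0.89 and 0.27. The 10 genes are given among the additional observations.

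At 12 h the combination was tested with libraries that entered the choice only through the mean count. By limma, 38 of the 108 fell and none rose with BL+Kyn, and of the 46 BL-down, Kyn-up genes 9 rose and 1 fell. Over all features 2.47% fell, 2.55% rose and 5.02% were called either way. The gene that fell was UGT73B4. Against BL alone, 38 of the 108 were lower (1.76% of all features) and 13 of the 46 were higher (1.49%, and 3.25% either way) with BL+Kyn, with medians of -1.46 and 0.95. Against Kyn alone the medians were -0.15 and -0.04, and 1 gene in each direction was called. Of all features 0.676% were called there. With a replicate block 1 of the 108 was lower than in Kyn. AT5G60350, an uncharacterized protein, was higher by 3.85 ± 0.69 (SE, adjusted p = 0.0141, 0.375% of all features were higher), and UGT73B4 was lower by 0.74, a difference of -0.74 ± 0.12 (adjusted p = 0.00799, 0.301% were lower). A call that was not made here does not show that BL+Kyn and Kyn acted alike.

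Single libraries moved these counts as well. The 38 that fell against mock became 20 and 18 without replicate 1 and replicate 2 of BL+Kyn at 12 h, and 20 and 13 without replicate 1 and replicate 2 of mock. The 9 that rose became 5 without any of those 4 libraries, and UGT73B4 lost its call without replicate 2 of BL+Kyn or either mock library. Without either library of BL or BL+Kyn at 48 h, 2 of the 46 were called lower, and without either library of Kyn at 12 h or BL+Kyn at 48 h 1 of the 108 was called higher. The 38 lower than in BL became 23 without replicate 1 of BL or either library of BL+Kyn, and the 13 higher became 5 without replicate 2 of BL and 6 without either library of BL+Kyn. Without both libraries rich in photosynthesis transcripts the 13 became 5, and neither AT5G60350 nor UGT73B4 differed between BL+Kyn and Kyn. AT5G60350 also lost that call without either library of BL+Kyn or replicate 2 of Kyn at 12 h, and UGT73B4 without replicate 2 of either group. Against Kyn, 5 of the 108 were higher and 1 lower without either library of BL+Kyn at 48 h, and 4 were higher and 3 lower, with 1 of the 46 higher, without replicate 1 of Kyn at 12 h.

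Over 24 and 48 h BL+Kyn took 4 places. For the 108 BL-up, Kyn-down genes it was further from mock than Kyn, on the same side, for 35 (32.4%), between Kyn and mock for 30 (27.8%), between mock and BL for 23 (21.3%) and beyond BL for 20 (18.5%). For the 46 BL-down, Kyn-up genes the counts were 17 (37.0%), 17 (37.0%), 10 (21.7%) and 2 (4.35%). These places subtract the mock libraries that also chose the genes, and they were not tested against BL or Kyn. Tested against mock over both times, 43 of the 108 fell and 13 rose with BL+Kyn, while 17.2% of all features fell and 18.9% rose, so that 36.1% were called. Of the 46, 21 rose and 2 fell. Without replicate 1 or replicate 2 of BL+Kyn at 48 h, 43 and 39 of the 108 fell, 11 and 12 rose, and 16 and 22 of the 46 rose. The share of the 108 beyond Kyn was 14.7% when the genes were chosen without replicate 1 of BL at 48 h and 42.4% without replicate 2, when 170 genes met the rule. The median difference of BL+Kyn from mock was -0.42 over the 108 and 0.49 over the 46. The first value moved to 0.00 without replicate 1 of BL at 48 h and to -0.02 without replicate 1 of Kyn at 48 h, when 28.5% lay beyond BL. The 13 that rose became 7 without replicate 2 of BL+Kyn at 24 h or replicate 1 of mock at 24 h, and 8 without replicate 2 of mock at 48 h.

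All 6 opposed genes of the root hair lists lay beyond Kyn in their means over 24 and 48 h. That place was not tested against Kyn. EXPA7 and EXPA18, expansins that loosen the wall of root hair cells, came from a list of 15 root hair genes, and RHS12, RHS13, RHS19 and RSH4 from 19 genes annotated as root hair specific, a list assembled after values had been seen. For these 6 genes the median difference from mock over 24 and 48 h was 0.48 with BL, -1.36 with Kyn and -2.69 with BL+Kyn, and all 6 fell with BL+Kyn. At 12 h limma called none of the 6 for BL+Kyn against Kyn, with a median of -0.43. Nor did it call any of all 32 listed root hair genes tested. At an unadjusted p under 0.05 by limma, none of the 6 and 6 of the other 26 were lower (8.22% of all features). RHS19 is a peroxidase family member and RHS12 a pectin methylesterase family member. In RNA of roots cut near the tip, fewer hair cells in the sampled piece and less RNA per hair cell cannot be told apart.

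EXPA7 (AT1G12560) held 2846 and 2573 normalized counts in mock at 12 h, 1900.5 and 2089.7 at 24 h and 1809.7 and 1587 at 48 h, against 3859 and 2388, 2752 and 3118, and 2742 and 1869.9 in BL. In Kyn it held 1079 and 1111, 962 and 1286, and 1059 and 973, and in BL+Kyn 714 and 975, 262 and 633, and 218 and 338. BL libraries overlapped mock at 12 h and lay above it at 24 and 48 h, while every library of BL+Kyn lay below both libraries of Kyn at its time. At 12 h EXPA7 was 1.47 ± 0.31 higher in BL than in Kyn (SE, limma adjusted p = 0.0140), a call lost without replicate 1 of BL at 12 h or either library of Kyn, and without both libraries rich in photosynthesis transcripts. With BL+Kyn it fell by 1.70 at 12 h (SE 0.31, adjusted p = 0.00255) and by 2.46 over 24 and 48 h (SE 0.22, adjusted p = 1.67e-07), and both calls held without each library in turn.

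RHS19 (AT5G67400) held 9932 and 10742 normalized counts in mock at 12 h, 6233 and 8131 at 24 h and 6420.4 and 8290.2 at 48 h, against 13403 and 9277, 8629.7 and 12144, and 11106 and 7344 in BL. Kyn libraries held 1962 and 2574, 1312 and 3034, and 1878 and 1776, and in BL+Kyn 1468 and 1624, 481 and 981, and 609 and 735. All Kyn and BL+Kyn libraries lay far below mock, and BL overlapped mock at 12 and 48 h. BL exceeded Kyn by 2.31 ± 0.33 at 12 h (limma adjusted p = 0.000556), and BL+Kyn differed from mock by -2.74 ± 0.33 at 12 h (adjusted p = 5.16e-05) and by -3.41 ± 0.24 over 24 and 48 h (adjusted p = 9.65e-09). EXPA18 differed by -2.41 ± 0.28 and -2.79 ± 0.20 in the same comparisons and RHS13 by -2.32 ± 0.29 and -3.13 ± 0.21. No call of EXPA18, RHS13 or RHS19 in these comparisons was lost under any alternative tried.

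Most listed root hair genes were not opposed, and most of those too were lower with Kyn. Of 32 listed root hair genes that were tested, 6 were opposed. For the other 26 the median difference from mock over 24 and 48 h was 0.08 with BL, -1.36 with Kyn and -2.64 with BL+Kyn. With Kyn 23 of the 26 lay below mock over those times and 3 above. At 12 h 14 of the 26 were higher in BL than in Kyn (1.41% of all features) and 13 fell with Kyn (1.03%), none was called for BL against mock by limma, edgeR or DESeq2 (1 was lower at an unadjusted p under 0.05), and over 24 and 48 h 25 of the 26 fell with BL+Kyn (17.2% of all features). BL values of the 26 ran from -0.26 to 0.45 over 24 and 48 h, next to 0.40 to 0.51 for the 6.

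Other genes beyond Kyn included several of cell walls and growing hairs, named here after their values were seen. MRH1, a receptor-like kinase needed for root hair growth, was -1.06 with BL+Kyn over 24 and 48 h. ROPGEF12, which activates the ROP GTPases that mark sites of tip growth, was -2.79, RAP2.11, an ERF transcription factor, was -3.01, and the kinase AT5G61350 was -1.75. The extensins EXT12 and HRGP1 and the extensin-like AT3G54580 were -2.82, -2.47 and -1.93. They are proline-rich, repetitive and among the most abundant opposed genes, with mean counts of 17494, 34078 and 30891, and reads shared between them could be split by the counting, so their separate values are uncertain. AT5G57625, a CAP family protein with a mean count of 2139.8, differed by -2.98 ± 0.21 (limma adjusted p = 1.30e-08).

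The largest opposed difference by the smaller of its sides belonged to AT1G26250, an extensin-like protein, at 1.47 with BL and -1.73 with Kyn. It held 33.5 and 62.5 normalized counts in BL at 24 h and 39.3 and 222 at 48 h, against 7.93 and 34.6, and 20.1 and 48.7, in mock. In Kyn it held 0.95 and 14.7 at 24 h and 19.98 and 3.24 at 48 h. BL overlapped mock at both times and Kyn did at 24 h, and at 12 h BL differed from Kyn by 0.22 ± 1.37 (limma adjusted p = 0.985). AT1G63295, a remorin family protein, had separate groups at both times but at 12 h a BL minus Kyn difference of -0.26 ± 0.58 (adjusted p = 0.944).

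AT3G63380, a P-type ATPase family member and among the genes with the largest opposed differences, lay close to Kyn with BL+Kyn. It held 86.1 and 95.3 normalized counts in mock at 12 h, 62.7 and 58.1 at 24 h and 50.7 and 54.3 at 48 h, against 137 and 100.2, 111 and 154, and 112 and 66.0 in BL. Kyn libraries held 19.1 and 10.7, 11.4 and 16.1, and 12.9 and 16.2, and in BL+Kyn 19.98 and 20.5, 17.98 and 25.5, and 8.64 and 9.71. BL lay above mock, and Kyn and BL+Kyn below it, at every time without overlap. BL exceeded Kyn by 2.95 ± 0.33 at 12 h (limma adjusted p = 6.10e-05), and BL+Kyn differed from mock by -2.11 ± 0.33 at 12 h (adjusted p = 0.000602) and by -1.92 ± 0.23 over 24 and 48 h (adjusted p = 6.79e-06).

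UMAMIT4, an EamA-like transporter, exceeded its Kyn level in BL by 1.89 ± 0.19 at 12 h (limma adjusted p = 2.37e-05). It differed from mock by -0.85 ± 0.14 with BL+Kyn over 24 and 48 h (adjusted p = 0.000105).

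GH3.1 was the opposed gene on the list of other auxin response genes, of which 10 were tested. The GH3 family includes enzymes that join amino acids to auxin, and auxin itself induces some of its members. GH3.1 held 61.7 and 94.0 normalized counts in mock at 12 h, 97.9 and 129.8 at 24 h and 60.7 and 119.9 at 48 h, against 59.5 and 95.3, 185 and 159.9, and 200.4 and 132 in BL. In Kyn it held 10.9 and 21.4, 27.6 and 85.6, and 34.1 and 16.2, and in BL+Kyn 33.8 and 32.0, 43.8 and 29.8, and 70.2 and 104. BL matched mock at 12 h and lay above it later, and BL+Kyn reached the range of mock at 48 h. BL exceeded Kyn at 12 h by 2.22 ± 0.48 (limma adjusted p = 0.0174), a call lost without replicate 2 of BL or replicate 1 of Kyn at 12 h and without both libraries rich in photosynthesis transcripts.

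The other auxin genes were mostly not opposed. None of 24 tested Aux/IAA genes, which encode auxin-induced repressors of the auxin response, was opposed, although 9 were higher in BL than in Kyn at 12 h (1.41% of all features) and none lower. Without both libraries rich in photosynthesis transcripts the 9 became 3. Their median difference of BL from Kyn at 12 h was 0.66. Their median difference from mock was 0.11 with BL and -0.48 with Kyn at 24 h, and 0.02 and -0.34 at 48 h. WAG2, a kinase that acts on PIN auxin carriers and was named after its values were seen, was opposed at 0.85 with BL and -0.64 with Kyn. It was higher in BL than in Kyn at 12 h by 2.02 ± 0.37 (limma adjusted p = 0.00470), a call lost without replicate 2 of Kyn at 12 h and without both libraries rich in photosynthesis transcripts.

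The opposed genes of aliphatic glucosinolate synthesis took another course with BL+Kyn. These enzymes lengthen methionine side chains and turn them into sulfur-rich defence compounds. MAM1, IMS2, IPMI1, IPMI2 and IMD1 act in chain elongation, BAT5 carries its intermediates across the plastid envelope, CYP79F2 and CYP83A1 oxidize the products, and AT2G31790 encodes a glycosyltransferase. Of 19 tested genes of this list, which was assembled after values had been seen, 9 were opposed. In these 9 the median difference from mock with BL was -0.34 at 12 h, 0.05 at 24 h and 1.16 at 48 h. With Kyn it was -0.76, -0.86 and -1.19, and with BL+Kyn it was -2.45, -1.12 and 0.66. Their place in the set thus rested on the 48 h libraries of BL, and no gene of the 9 was called for BL against Kyn, BL against mock or Kyn against mock at 12 h. None of the 9 reached even an unadjusted p under 0.05 there, and edgeR and DESeq2 called none. With BL+Kyn 4 of the 9 fell at 12 h by limma (2.47% of all features) and DESeq2 and 2 by edgeR, and all 9 were lower at an unadjusted p under 0.05 (9.02% of all features). Over 24 and 48 h limma, edgeR and DESeq2 called none of the 9, and none had an unadjusted p under 0.05. For the other 10 tested genes the median difference from mock with BL+Kyn was -0.21 at 12 h, -0.29 at 24 h and -0.07 at 48 h. Their values at 12 h ran from -1.89 to 0.07, and limma called none of these 10 there.

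IPMI2 held 70.7 and 128 normalized counts in mock at 12 h, 96.3 and 293 at 24 h and 86.3 and 243 at 48 h, against 68.7 and 103, 107 and 282, and 322 and 329.9 in BL. Kyn libraries held 51.0 and 61.6, 43.8 and 147, and 61.1 and 42.1, and in BL+Kyn 11.7 and 5.13, 36.0 and 90.7, and 119.8 and 374. Replicate 2 lay above replicate 1 in mock at each time, and BL overlapped mock at 12 and 24 h. BL+Kyn was lowest at 12 h without overlap and overlapped mock at 48 h. It differed from mock by -3.45 ± 0.69 at 12 h (limma adjusted p = 0.00536), a call lost without replicate 2 of BL+Kyn or of mock at 12 h.

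IMS2 held 42.0 and 35.9 normalized counts in BL+Kyn at 12 h, 89.3 and 329 at 24 h and 534 and 832 at 48 h, against 166 and 285, 153 and 335, and 115 and 307 in mock. Its BL+Kyn libraries passed from below both mock libraries at 12 h to above both at 48 h. The difference at 12 h was -2.45 ± 0.61 (limma adjusted p = 0.0239), and the call was lost without either library of BL+Kyn or of mock at 12 h.

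The replicates of these 9 genes parted together. Replicate 2 exceeded replicate 1 for 9 of 9 genes in mock at 12, 24 and 48 h, by a median of 0.78, 1.27 and 1.44 on the log2 scale. At 24 h the same held for 9 of 9 genes in BL, Kyn and BL+Kyn, with medians of 1.23, 1.90 and 1.79. At 48 h it held for 6 of 9 genes in BL and 4 of 9 in Kyn, where the medians were 0.08 and -0.51. In BL+Kyn it held for 2 of 9 genes at 12 h and 9 of 9 at 48 h, with medians of -0.22 and 1.54. At 24 h same-numbered libraries also deviated together over all features with a mean of at least 20, with correlations of 0.159 to 0.235 for all 6 pairs of groups. Replicate 2 was the shallower library in most groups, but in mock at 12 h both libraries held similar numbers of reads, at 9296386 and 9472799. The part of this replicate difference in their opposed values was not tested.

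**Figure D4:**
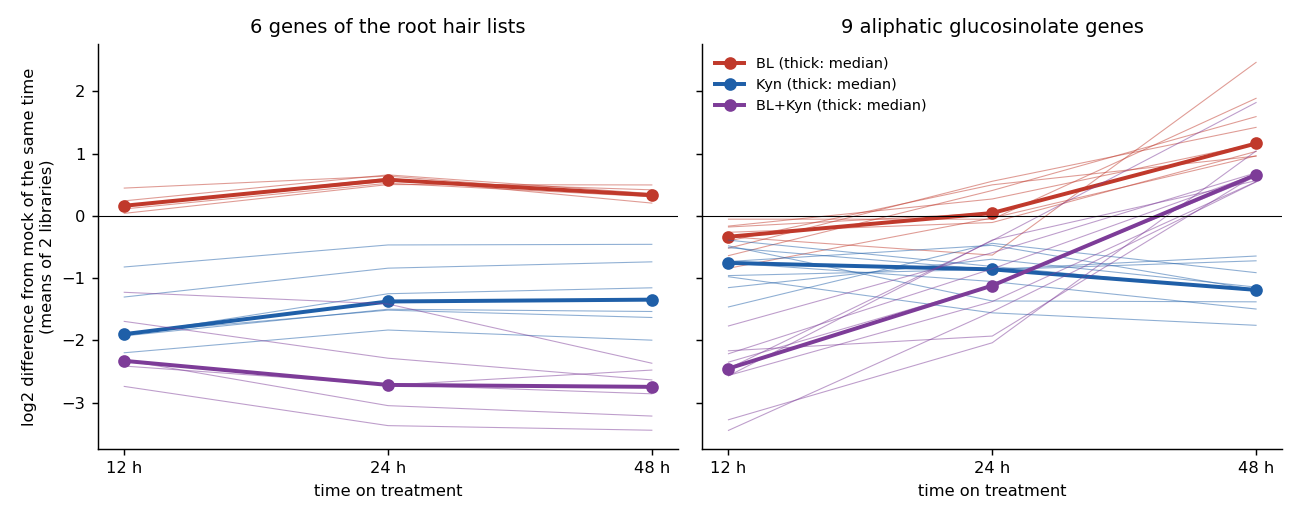
Log2 difference from mock of the same time (y axis, means of 2 libraries) at 12, 24 and 48 h (x axis) for 6 opposed genes of the root hair lists and 9 of the aliphatic glucosinolate list; thin lines are genes and thick lines medians. The root hair medians with BL+Kyn are -2.33, -2.72 and -2.75, and the glucosinolate medians are -2.45, -1.12 and 0.66.

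Other genes lay beyond BL in their mean with BL+Kyn over 24 and 48 h, a place that was not tested against BL. AT1G09932, a phosphoglycerate mutase family member, held 99.0 and 92.8 normalized counts in mock at 12 h, 79.7 and 137 at 24 h and 63.5 and 95.0 at 48 h, against 176 and 172, 137 and 269.8, and 439 and 136 in BL. In Kyn it held 33.3 and 10.7, 33.3 and 68.2, and 55.2 and 45.3, and in BL+Kyn 72.3 and 52.5, 309 and 377, and 216 and 702. BL+Kyn was below mock at 12 h and above both mock libraries later, and at 48 h it overlapped BL. BL exceeded Kyn by 3.13 ± 0.57 at 12 h (limma adjusted p = 0.00470), and the call was lost without replicate 1 of BL or replicate 2 of Kyn at 12 h, and without both libraries rich in photosynthesis transcripts (adjusted p = 0.297). BL+Kyn differed from mock by 2.00 ± 0.41 over 24 and 48 h (adjusted p = 0.000813).

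EARLI1, a lipid-transfer family member, differed from mock by 2.65 ± 0.87 with BL+Kyn over 24 and 48 h (limma adjusted p = 0.0223). Its replicates ranged widely, at 29.8 and 1204 normalized counts in BL at 24 h, so the value is loosely fixed, and the call was lost without replicate 2 of BL+Kyn or replicate 1 of mock at either time.

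Of 12 green-tissue (photosynthesis) genes tested, 2 were opposed, and these lay beyond BL. Over 24 and 48 h the 12 had a median of 0.01 with BL, with 6 of them above 0. With Kyn their median was -0.32, with 8 below 0, and with BL+Kyn it was 0.62. LHCB2.1 and LHCA3, proteins of the light-harvesting antenna, were opposed at 0.62 and -0.51, and at 0.52 and -0.42. LHCB2.1 held 4075 and 1459 normalized counts in the BL and Kyn libraries at 12 h that stood apart, and 173 and 39.0 in their partners. With BL+Kyn it held 533 and 176 at 48 h, where the summed photosynthesis genes reached 7591 and 5445 against 2373 and 5364 in mock. By limma neither gene was called in any comparison at 12 h, while the authors' deposited table has LHCB2.1 higher with BL at 12 h, at a log2 ratio of 1.41 with an adjusted p of 0.000176. SUC2, the phloem sucrose carrier and the opposed gene of 2 phloem genes tested, was at 0.46 and -0.41, and 0.70 ± 0.28 with BL+Kyn (limma adjusted p = 0.0576).

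Among BL-down, Kyn-up genes AT1G73780, a lipid-transfer family member, had the smallest p for BL against Kyn at 12 h. It held 99.0 and 92.8 normalized counts in mock at 12 h, 108 and 100.2 at 24 h and 125 and 113 at 48 h, against 74.2 and 59.9, 68.2 and 71.2, and 93.9 and 94.2 in BL. Kyn libraries held 293 and 297, 519 and 427, and 287 and 477, and in BL+Kyn 286 and 295, 275 and 320.3, and 236 and 201. BL lay below mock and both groups with Kyn lay above it at every time without overlap. BL differed from Kyn by -2.13 ± 0.20 at 12 h (limma adjusted p = 8.60e-06), and BL+Kyn from mock by 1.59 ± 0.20 at 12 h (adjusted p = 5.77e-05) and 1.19 ± 0.14 over 24 and 48 h (adjusted p = 4.43e-06). No alternative ended these calls.

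CLE5, a peptide of the CLAVATA3 family, held 104 and 81.3 normalized counts in mock at 12 h, 107 and 87.8 at 24 h and 143 and 98.4 at 48 h, against 63.3 and 96.5, 59.0 and 50.0, and 86.2 and 124 in BL. In Kyn it held 258 and 222, 275 and 194, and 351 and 366, and in BL+Kyn 311 and 404, 181 and 156, and 247 and 97.1. Kyn was above mock at every time, BL overlapped mock at 12 and 48 h, and BL+Kyn overlapped mock at 48 h. CLE5 rose with BL+Kyn at 12 h by 1.93 ± 0.33 (limma adjusted p = 0.00152), while over 24 and 48 h the value was 0.59 ± 0.23 (adjusted p = 0.0586).

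IDL1, a peptide related to the abscission signal IDA, was lower in BL than in Kyn at 12 h by a difference of -2.35 ± 0.43 (limma adjusted p = 0.00495), a call lost without replicate 2 of BL or replicate 1 of Kyn and without both libraries rich in photosynthesis transcripts. With BL+Kyn it was 1.58 ± 0.43 at 12 h (adjusted p = 0.0411) and 0.21 ± 0.31 over 24 and 48 h (adjusted p = 0.632), and the first call was lost without any 1 library of either group at 12 h. PEP7, an elicitor peptide precursor named after its values were seen, was at -0.53 with BL, 0.46 with Kyn and 0.36 with BL+Kyn.

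UGT73B4 and AT2G43590 were the 2 of the 46 called lower with BL than in mock at 12 h, and whether they differed from the other genes was not tested. UGT73B4, a glycosyltransferase, held 1794 and 1667 normalized counts in mock at 12 h, 1032 and 885 in BL, 2010.5 and 2224 in Kyn and 1372 and 1174 in BL+Kyn. The groups did not overlap and BL+Kyn lay between BL and mock. At 24 and 48 h it held 1629 and 1464, and 1280.0 and 1315, in mock, against 1495 and 1540.5, and 1262 and 1272, in BL+Kyn. It differed from mock by -0.85 ± 0.12 with BL at 12 h (limma adjusted p = 0.0173), from Kyn by -1.14 ± 0.12 in BL (adjusted p = 2.88e-05), and from mock by -0.03 ± 0.08 with BL+Kyn over 24 and 48 h (adjusted p = 0.817).

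AT2G43590, a chitinase family member, fell by 1.12 with BL at 12 h (SE 0.19, limma adjusted p = 0.0267) and rose with BL+Kyn over 24 and 48 h by 0.78 ± 0.14 (adjusted p = 0.000222). Both calls with BL against mock at 12 h were lost without replicate 2 of BL, without either mock library, and without both libraries rich in photosynthesis transcripts.

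AT1G35210, an uncharacterized protein, stood highest among the 46 with BL+Kyn. It held 10.3 and 11.4 normalized counts in mock at 12 h, 12.1 and 54.4 at 24 h and 5.57 and 12.4 at 48 h, against 98.5 and 83.3, 137 and 201, and 99.3 and 171 in BL+Kyn. In BL it held 12.0 and 3.67, 5.95 and 11.2, and 30.4 and 5.65, and in Kyn 81.9 and 66.9, 61.8 and 88.2, and 16.4 and 80.9. Every BL+Kyn library lay above every mock library, and BL overlapped mock at 12 and 48 h. BL+Kyn differed from mock by 3.22 ± 0.54 over 24 and 48 h (limma adjusted p = 0.000162).

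PRP2, a proline-rich cell wall protein, rose with BL+Kyn by 1.47 ± 0.26 at 12 h (limma adjusted p = 0.00185). AT1G75590, of the SAUR family of auxin-responsive proteins, rose by 1.51 ± 0.24 in that comparison (adjusted p = 0.000790). TIP2;3, an aquaporin of the vacuole membrane, rose by 1.32 ± 0.35 over 24 and 48 h (adjusted p = 0.00625), although its libraries at 48 h held 12720.0 and 2136 normalized counts. The 2 genes beyond BL were AT1G50060, a CAP family protein that fell by 1.05 with BL+Kyn over 24 and 48 h (SE 0.16, adjusted p = 7.12e-05), and PYL2, an abscisic acid receptor named after its values were seen, at -0.92 ± 0.43 (adjusted p = 0.106). The mean of AT1G50060 rested on 48 h, with a difference from mock of 0.02 at 24 h and -2.12 at 48 h. AT5G67430, an acyltransferase family member, rose by 2.53 at 12 h (adjusted p = 0.00172) and by 1.28 ± 0.31 over 24 and 48 h (adjusted p = 0.00361). AT2G01900, of the DNase I-like superfamily, rose by 1.55 ± 0.26 over 24 and 48 h (adjusted p = 0.000185), and GulLO2, of a lactone oxidase family, by 1.12 ± 0.32 (adjusted p = 0.0100), a call lost without replicate 1 of BL+Kyn at 48 h. The carboxypeptidase-like scpl16, between mock and BL, fell by 1.47 (SE 0.32, adjusted p = 0.00141).

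**Figure D5:**
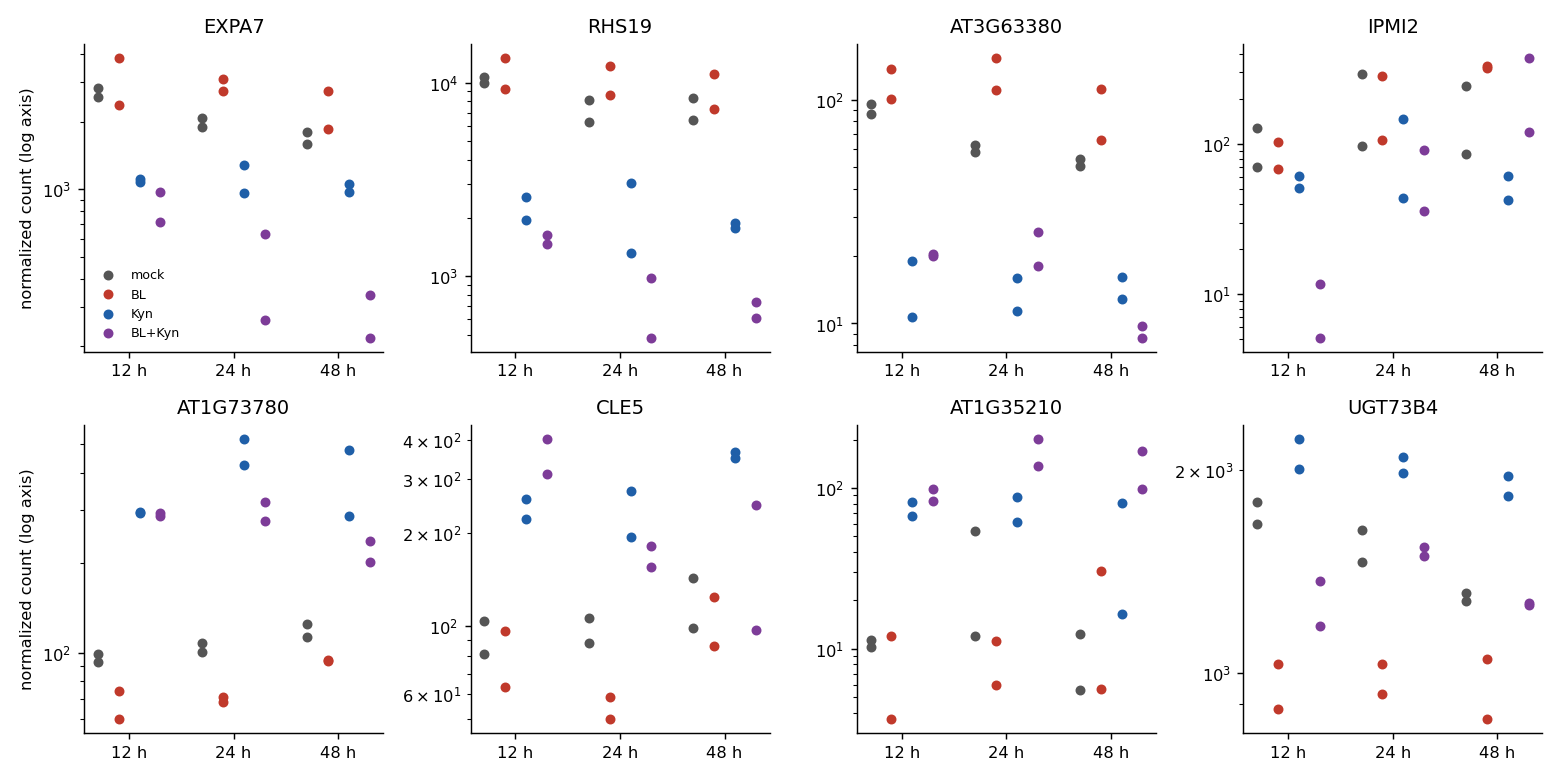
Normalized counts (y axis, log scale) of 8 opposed genes in each library at 12, 24 and 48 h (x axis), coloured by treatment; each point is a library. BL+Kyn libraries lie below Kyn in EXPA7 and RHS19, above both other treatments and mock in AT1G35210, and between BL and mock at 12 h in UGT73B4.

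Most lists of other pathways held no opposed gene. No tested gene of brassinosteroid synthesis and inactivation (12 tested), brassinosteroid perception and signalling (8), auxin synthesis and transport (18), type-A response regulators (8), expansins and XTHs other than the root hair expansins (21), xylem (8), meristem (13), endodermis (7) or G2/M (6) was opposed. The same held for non-hair epidermis (7), ethylene (7), iron deficiency (5), indole glucosinolates and camalexin (5), flavonoids (6) and jasmonate (5). CYP82C4, a P450 known from the iron deficiency response but not on that list, was opposed at -0.71 with BL and 0.85 with Kyn, and at -0.40 with BL+Kyn. It was lower in BL than in Kyn at 12 h, by a difference of -2.97 (limma adjusted p = 0.0198), a call lost without any 1 of those 4 libraries and without both libraries rich in photosynthesis transcripts (adjusted p = 0.220). NIT2, a nitrilase that can make auxin from indole-3-acetonitrile and was named after its values were seen, was at -0.44, 0.43 and 0.31.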

How the data were processed

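Normalized counts of 24 libraries were used as deposited. Per the labels' protocols, roots were sampled and libraries made by CEL-Seq2. Per the submitters' processing notes, the tools named are TopHat2 2.1.0, DESeq2 1.18.1, HTSeq 0.6.1, FastQC 0.11.5, cutadapt 1.10 and Trim Galore, with build TAIR10. Collapse of molecular identifiers and the strand setting are not given in the sources used here, so antisense and overlapping genes are uncertain. The deposited signal per gene is a read count divided by a library factor, scaled by the authors, and whole reads were recovered from it (100.0% within 0.1). The authors' deposited table also holds log2 ratios and adjusted p-values of treatment against mock at each time, made by the authors.

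From the normalized counts, limma 3.58.1 (R 4.3.3) was fitted with an intensity trend to log2(value + 1) over all 12 groups, with 12 residual degrees of freedom, for 18948 of 40246 features with a mean of at least 5. Fold changes on this scale understate changes of low genes. Benjamini-Hochberg adjusted p under 0.05 was the call, and errors are standard errors. The fit was checked on simulated data. Alternatives were edgeR 4.0.16 and DESeq2 1.42.0 on recovered reads, other pseudocounts and filters, rescaling, a replicate term, and leaving out libraries. Same-numbered libraries deviated together at 24 h, with a correlation over 0.1 for all 6 pairs of groups, but for 2 of 6 pairs at 12 h and 2 of 6 at 48 h, and over all times for 20 of 66 (from -0.19 to 0.59). The labels tie the numbers to nothing shared. Replicates differed by more than sampling noise in every group (chi-square per gene of at least 6.19). Nothing in the labels says that replicates came from separate cultures, so p-values measure the spread between these libraries, which may be technical.

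The 154 genes and all lists were chosen with earlier results of these data known. The aliphatic glucosinolate list and the list of genes annotated as root hair specific were chosen after their values were seen and were not tested as lists. Named in each direction were the 12 genes with the largest smaller side, the 4 with the smallest p in each of 3 comparisons (BL against Kyn at 12 h, and BL+Kyn against mock at 12 h and over 24 and 48 h), genes of the lists, and 2 genes on either side of the limits. Other names were chosen after values were seen. Locations matched TAIR10.1 of RefSeq for 25707 of 25708 shared loci by overlap, while starts and ends were identical for 24.4%, so a printed promoter may begin elsewhere in the authors' annotation. Totals of 6322167 to 31365110 reads limit the precision of genes with low counts.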

Additional observations from a re-analysis of the deposited data

Results flagged for a closer look

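A contrast between times, added after the data had been seen, asked whether the difference of BL+Kyn from mock changed from 12 to 48 h. These 10 opposed genes drew notice because that difference between times was itself tested and passed an adjusted p of 0.05 by limma, as 2.55% of all features did. No sign reversed under the 33 alternatives run for each gene, but each call was lost without 1 library of mock at 12 h and without 1 of mock at 48 h.

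Among BL-up, Kyn-down genes the difference rose with time in 4. IMS2, a methylthioalkylmalate synthase family member, went from -2.45 at 12 h to -0.40 at 24 h and 1.82 at 48 h, a change of 4.27 ± 0.86 (SE, limma adjusted p = 0.0117), and 3 alternatives ended the call, which were leaving out replicate 2 of BL+Kyn at 12 h, replicate 2 of mock at 12 h or replicate 1 of mock at 48 h. IPMI2 changed by 3.99 ± 0.97 (limma adjusted p = 0.0335), and 8 alternatives ended the call. NIP3;1, an aquaporin family member, changed by 1.80 ± 0.47 (limma adjusted p = 0.0472), and AT2G46600, a calcium-binding EF-hand protein, by 1.49 ± 0.39 (limma adjusted p = 0.0493). These 2 calls ended under 23 and 21 alternatives.

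The difference fell with time in 3 others, which were already below mock at 12 h. AT5G40860, an uncharacterized protein, went from -0.81 at 12 h to -1.65 and -3.09, a change of -2.28 ± 0.46 (limma adjusted p = 0.0125), and the same 3 libraries ended the call. AT5G61350, a protein kinase, changed by -1.72 ± 0.44 (limma adjusted p = 0.0447), with 22 alternatives ending the call. AT3G54580, an extensin-like gene whose reads may be shared, changed by -1.48 ± 0.35 (limma adjusted p = 0.0294), with 8.

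Among BL-down, Kyn-up genes AT4G33610, a glycine-rich protein, changed by 2.79 ± 0.72 (limma adjusted p = 0.0455), with 19 alternatives ending the call. AT1G50060, a CAP family protein, changed by -1.58 ± 0.32 (limma adjusted p = 0.0128), with 3, and AT3G50120, annotated as a putative transmembrane protein, by -1.45 ± 0.32 (limma adjusted p = 0.0207), with 5.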

How the results depend on the processing

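The choice of genes was sensitive to its limits. With limits of 0.3, 211 and 104 genes were BL-up, Kyn-down and BL-down, Kyn-up, and with 0.5, 53 and 22. A mean of at least 10 gave 75 in the second direction, and a mean of at least 50 gave 69 and 24. Averaging all 3 times gave 67 genes in the first direction, 52 of them shared, with 47.8% between Kyn and mock and 7.46% beyond BL for BL+Kyn. Leaving out each library in turn gave 90 to 170 and 45 to 60 genes. In the first direction 14.7% to 42.4% were beyond Kyn, 22.8% to 36.7% between Kyn and mock, 15.9% to 29.4% between mock and BL and 14.6% to 28.5% beyond BL, with a median from -0.58 to 0.00, the last without replicate 1 of BL at 48 h. In the second direction these were 30% to 46.3%, 31.6% to 45.6%, 14.8% to 28.9% and 2.22% to 9.09%, with a median from 0.29 to 0.75. The cause was not tested.

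Leaving out each library in turn, counts for the 108 genes and then the 46 ranged as follows. BL against Kyn at 12 h gave 13 to 45 higher and 6 to 17 lower. BL against mock gave 0 to 2 lower among the 46. Kyn against mock gave 8 to 36 lower and 0 to 3 higher, and 2 to 8 higher. BL+Kyn against mock at 12 h gave 13 to 47 lower and 0 to 1 higher, and 5 to 13 higher and 0 to 2 lower. Over 24 and 48 h it gave 39 to 44 lower and 7 to 15 higher, and 16 to 22 higher and 2 to 3 lower. BL+Kyn against BL gave 23 to 50 lower and 5 to 17 higher. BL+Kyn against Kyn gave 0 to 5 higher and 0 to 3 lower, and 0 to 1 in either direction. No library left out gave a call against the direction of choice for BL against Kyn or BL against mock.

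Without both libraries rich in photosynthesis transcripts, BL against Kyn gave 18 and 5, BL against mock 0, Kyn against mock 12 and 3, BL+Kyn against mock 1 higher among the 108, BL+Kyn against BL 5 among the 46, and BL+Kyn against Kyn 0 and 0. Fitted on the libraries of 12 h alone, BL against mock and the fall with BL+Kyn among the 46 gave 0, and BL+Kyn against Kyn gave 2 higher and 3 lower among the 108. With no filter Kyn against mock gave 14 and 3. DESeq2 gave 1 higher among the 108 for BL+Kyn against mock at 12 h, and 4 higher and 1 lower against Kyn. Apart from these and the ranges above, counts and shares over the opposed genes stayed within 1.5 times or within the spread between libraries under the alternatives run. For single named genes, 341 combinations of gene and alternative lost the call and none changed sign. Most opposed genes were low, with 61.1% of the 108 and 67.4% of the 46 under 100 normalized counts, which limits what their 2 libraries a group can show.

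A replicate block over all times gave 1 lower gene among the 108 for BL+Kyn against Kyn, and 97 lower genes in place of 57 over all features. A replicate block within 24 h, added after the data had been seen, also gave 1 lower gene among the 108 there. Neither block moved another count of opposed genes by over 1.5 times.

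Over all features, leaving out each library in turn gave 91 to 396 higher and 29 to 187 lower for BL against Kyn, 0 to 23 and 0 to 31 for BL against mock, 21 to 118 and 81 to 286 for Kyn against mock, 139 to 787 and 161 to 815 for BL+Kyn against mock at 12 h, 49 to 577 and 142 to 617 for BL+Kyn against BL, and 0 to 363 and 0 to 432 for BL+Kyn against Kyn. The last counts were 362 and 432 without replicate 1, and 363 and 432 without replicate 2, of BL+Kyn at 48 h, whose libraries enter only through the shared estimate of spread, and 157 and 209 without replicate 1 of Kyn at 12 h. Other counts over all features moved as follows. BL against Kyn went from 268 higher and 93 lower to 101 and 17 without both libraries and to 173 lower with DESeq2. BL against mock went from 8 and 10 to 0 and 0 without both libraries, 22 and 32 with DESeq2, 4 and 2 on 12 h libraries alone, 5 higher with edgeR and 19 higher without a filter. Kyn against mock went from 48 and 195 to 27 and 104 without both libraries, 101 higher with DESeq2 and 30 higher without a filter. BL+Kyn against BL went from 282 and 333 to 50 and 199 without both libraries and 434 and 516 with DESeq2. BL+Kyn against Kyn went from 71 and 57 to 0 and 0, 249 and 234, and, without a filter, 46 and 29, with 87 lower on 12 h libraries alone.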

Other observations

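These genes were named after their values were seen. ERF5, an ethylene response factor and BL-down, Kyn-up gene, was lower in BL than in Kyn at 12 h by a difference of -0.89 ± 0.21 (limma adjusted p = 0.0349), a call lost without any 1 library of either group and without both libraries rich in photosynthesis transcripts, and was 0.51 ± 0.15 with BL+Kyn over 24 and 48 h (limma adjusted p = 0.0128). HB-7, a homeodomain factor known from the abscisic acid response, rose by 1.11 ± 0.30 (limma adjusted p = 0.00688) with BL+Kyn over 24 and 48 h, and STZ, a zinc finger factor of salt stress, by 1.14 ± 0.43 (limma adjusted p = 0.0474). WRKY61 was at -0.32 ± 0.47 (limma adjusted p = 0.628).

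LACS1, an acyl-CoA synthetase of wax and cutin synthesis, was a BL-up, Kyn-down gene that rose with BL+Kyn over 24 and 48 h, by 1.62 ± 0.29 (limma adjusted p = 0.000326). CIPK16, a kinase that binds calcium sensors, fell by 1.08 with BL+Kyn (SE 0.25, limma adjusted p = 0.00276) and was 2.099 ± 0.36 higher in BL than in Kyn at 12 h (limma adjusted p = 0.00253), a call lost without replicate 1 of BL.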
